A study of Homo sapiens with 11 samples.

Results

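The microRNA loci with signal in DMS153 are 161 entries of the deposited gene tables. Of these, 159 had a gene name that starts with MIR, did not contain HG, and reached at least 1 FPKM in all 3 DMS153 RNA libraries. FPKM are sequenced fragments scaled by a transcript length that the software sets and by the size of the library. The host genes MIR17HG and MIR22HG were added by name. They come from 1376 microRNA-named loci and from 57815 genes in all. The members were thus chosen by their measured DMS153 values, which are given as a description and carry no test.

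Total RNA was sequenced from 2 small cell lung carcinoma lines, DMS153 (3 libraries, with titles that spell the line DM153) and H209 (2 libraries), and from MRC5, a normal lung fibroblast line (3 libraries). All were grown in RPMI medium with serum, and no treatment separated them. Hi-C, which measures contacts between chromosome regions, was run on 1 library of each line. Each line is a single established line, so a difference between lines is not a difference between cancer and normal lung. The labels do not say whether replicates were separate cultures, so a p-value rests on the variation among these libraries, and that may be technical.

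A microRNA is cut from a hairpin in a longer transcript by the nuclear enzyme DROSHA with DGCR8, exported to the cytoplasm, and cut again by DICER1 into a short duplex. One strand of the duplex enters an Argonaute protein and pairs with messenger RNAs mainly through its seed, a short stretch near its 5′ end, which lowers their stability and translation. MicroRNAs with the same seed form a family, several can be cut from the same transcript, and many have a strong tissue preference, such as miR-122 in hepatocytes and miR-144 in erythroid cells.

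The lines carried the protein-coding markers of their labels. The small cell and neuroendocrine markers CHGA, SYP, INSM1 and NCAM1 were at 1 FPKM or more in every DMS153 and H209 library, with a summed level of 649.8 to 732 FPKM in DMS153, 757 to 773 FPKM in H209 and 0.0474 to 0.167 FPKM in MRC5. The 5 fibroblast markers summed to 6.98 to 8.57 FPKM in DMS153, 2.98 to 2.99 FPKM in H209 and 6844 to 7572 FPKM in MRC5. Read totals are not in the tables, and the low values gave depths between 0.953 and 1.66 times that of MRC5 replicate 1, highest in DMS153 replicate 1.

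The mature sequences below belong to the loci on which the description turns. RefSeq (GRCh38.p14) held a microRNA entry for 150 of the 159 loci. Sequences run 5′ to 3′, and capitals mark the seed, bases 2 to 8. The deposited values are per locus and do not separate the 5′ arm from the 3′ arm of a hairpin, so the arm shown is the one usually reported as the main product. The first set is the let-7 family, shown because all of its loci were members and every 5′ form carries one seed, GAGGUAG.
hsa-let-7a-5p: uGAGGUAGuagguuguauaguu
hsa-let-7b-5p: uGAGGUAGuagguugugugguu
hsa-let-7c-5p: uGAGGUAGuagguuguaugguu
hsa-let-7d-5p: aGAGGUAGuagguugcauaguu
hsa-let-7e-5p: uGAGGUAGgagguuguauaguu
hsa-let-7f-5p: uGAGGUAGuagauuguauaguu
hsa-let-7g-5p: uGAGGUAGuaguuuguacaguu
hsa-let-7i-5p: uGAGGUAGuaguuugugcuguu
hsa-miR-98-5p: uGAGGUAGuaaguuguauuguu

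The second set holds microRNAs of the loci of highest level, without the let-7 loci above and without MIR486, for which no sequence was matched. Their seeds differ from each other and from that of let-7, so the highest values are not those of 1 family. The entry behind miR-144 is longer than a hairpin, and its value cannot be assigned to miR-144 alone.
hsa-miR-144-3p: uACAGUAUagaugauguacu
hsa-miR-122-5p: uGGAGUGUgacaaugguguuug
hsa-miR-148a-3p: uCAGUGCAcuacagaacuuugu
hsa-miR-126-3p: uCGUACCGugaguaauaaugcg
hsa-miR-423-5p: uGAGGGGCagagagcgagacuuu
hsa-miR-21-5p: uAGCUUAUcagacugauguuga
hsa-miR-26a-5p: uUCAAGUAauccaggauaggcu

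The third set shows a seed, AUUGCAC, that is shared by 5 member loci and by miR-92a of the 17-92 cluster.
hsa-miR-25-3p: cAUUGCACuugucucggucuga
hsa-miR-92a-3p: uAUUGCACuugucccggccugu
hsa-miR-363-3p: aAUUGCACgguauccaucugua
hsa-miR-92b-3p: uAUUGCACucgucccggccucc
hsa-miR-32-5p: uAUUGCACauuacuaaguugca

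The highest level was that of the entry named MIR144, an erythroid microRNA locus (hg19 chromosome 17, 27188090 to 27188984). It spans 895 bp, and RefSeq places the hairpins of MIR451A and MIR4732 on either side of MIR144, so its level may hold more than 1 microRNA. It stood at 100371, 92649 and 106693 FPKM in the DMS153 libraries and was listed at 0 in both H209 and all 3 MRC5 libraries. MIR122, the liver microRNA (chromosome 18, 56118306 to 56118390), stood at 66424, 63763 and 76740 FPKM in DMS153. MIR486, a second erythroid microRNA, which lies inside the erythrocyte ankyrin gene ANK1, had 25051, 23613 and 25926 FPKM in DMS153. Both were listed at 0 in every H209 and MRC5 library, so the lines did not overlap at any of these loci. MIR148A had 21572, 22427 and 23844 FPKM in DMS153. MIRLET7B had 14437, 12295 and 15032 FPKM, and the endothelial MIR126 had 13146, 13120 and 13531 FPKM. MIRLET7I, MIR423, MIR21 and MIR26A1 completed the 10 highest, with means between 6103 and 9019 FPKM, though MIR26A1 shares a mature sequence with MIR26A2. All 10 were listed at 0 in the H209 and MRC5 libraries, and together they held 79.3%, 78.4% and 79.6% of the FPKM summed over all microRNA loci in the DMS153 libraries.

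Levels covered a wide range. Of the 159 loci, 6 averaged at least 10000 FPKM in DMS153, 31 at least 1000, 80 at least 100 and 139 at least 10, with a median of 100.5 FPKM. Levels correlated between the 3 libraries, with Pearson r of 0.973 to 0.981 across loci on the log2(FPKM + 1) scale. That is a description over loci that share a library, and the wide range of levels raises it. The spread between libraries was smaller at higher levels: the median coefficient of variation was 5.60% for loci of at least 1000 FPKM, 15.4% from 100 to 1000, 32.9% from 10 to 100 and 35.2% below 10. MIR192, MIR425 and MIR126 varied least (1.16%, 1.16% and 1.74%). MIR204, MIR32 and MIR450A1 varied most (90.2%, 85.8% and 81.3%), and MIR204 stood at 11.8, 5.08 and 1.11 FPKM. The confidence intervals that the authors deposited with each value showed the same order, with a median half-width of 9.93% of the value at 1000 FPKM or more and 137% below 10 FPKM.

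**Figure D1:**
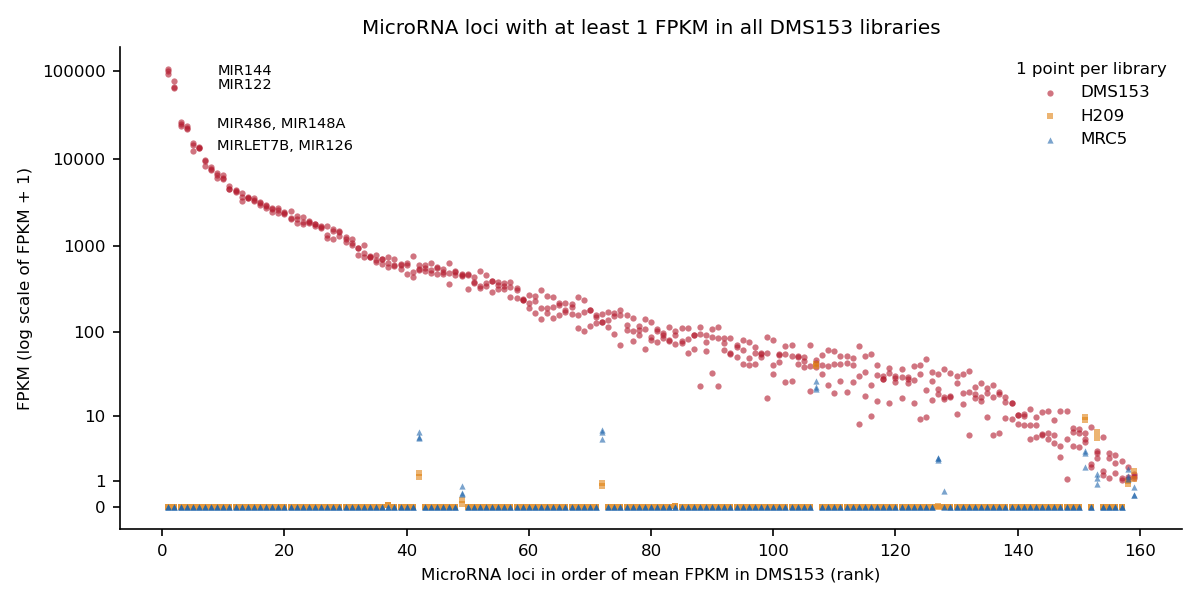
Each of the 159 loci takes 1 position on the horizontal axis, in order of its mean in DMS153, and each point is the FPKM of 1 library on a log scale of FPKM + 1 (DMS153, H209 and MRC5 by colour). The DMS153 points fall from 106693 FPKM at MIR144 to about 1 FPKM, while almost all H209 and MRC5 points lie at 0.

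At the threshold itself, the 3 loci just inside by their lowest DMS153 library were MIR548O (1.02 FPKM), MIR940 (1.09 FPKM) and MIR204 (1.11 FPKM). The 3 just outside were MIR3654 (0.744 FPKM), MIR378C (0.623 FPKM) and MIR1302-2 (0.491 FPKM). Of the other microRNA loci, 45 reached 1 FPKM in exactly 2 DMS153 libraries and 65 in exactly 1, and 1024 of the 1376 were listed at 0 in all 3. At 1 FPKM in all their libraries, H209 had 7 microRNA loci and MRC5 had 7.

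All 12 let-7 family loci were members. The let-7 microRNAs act against growth-promoting messenger RNAs such as those of RAS and HMGA2 and rise as cells differentiate. Their levels in DMS153 spanned from MIRLET7B, above, to MIR98, at 81.9, 87.7 and 132 FPKM. MIRLET7I had 9383, 8174 and 9502 FPKM. MIRLET7A2 had 3352, 3260 and 3527 FPKM, and the other loci that give the same let-7a sequence, MIRLET7A3 and MIRLET7A1, averaged 3062 and 1634 FPKM. Loci of identical mature sequence cannot be separated by reads of the mature form, so the division among these let-7a loci is uncertain. MIRLET7F2, MIRLET7G, MIRLET7D and MIRLET7F1 averaged 2803, 2583, 2023 and 1864 FPKM, and MIRLET7E and MIRLET7C averaged 627 and 419 FPKM. The family summed to 41995, 38545 and 43765 FPKM, which was 12.3%, 11.8% and 11.9% of all microRNA FPKM in the DMS153 libraries. Every let-7 locus was listed at 0 in the 2 H209 and the 3 MRC5 libraries.

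LIN28A and LIN28B, the RNA-binding proteins that block let-7 maturation, were low in the same libraries. LIN28B had 0.00313, 0.00818 and 0.00540 FPKM in DMS153, 1.20 and 0.957 FPKM in H209, and at most 0.000340 FPKM in MRC5. LIN28A was at 0.0557 to 0.137 FPKM in DMS153, 0.0488 to 0.0490 FPKM in H209 and at most 0.000260 FPKM in MRC5.

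The 6 microRNAs of the 17-92 cluster, which promote proliferation and are amplified in some small cell lung cancers, had no entries of their own under the names searched, and in RefSeq (GRCh38.p14) they lie inside MIR17HG. MIR17HG, their host gene, stood at 2096, 2059 and 2316 FPKM in DMS153, 1.67 and 1.80 FPKM in H209, and 0.281, 0.440 and 0.568 FPKM in MRC5. The 3 lines did not overlap, with DMS153 highest and MRC5 lowest. The tables give 1 value for the whole gene, so a spliced host transcript and the hairpins inside it cannot be told apart.

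Of the 6 loci of the paralogous 106a-363 cluster on chromosome X, 3 were members. MIR92A2 had 2390, 2296 and 2437 FPKM in DMS153, MIR363 had 947, 787 and 948 FPKM, and MIR19B2 had 6.04, 3.96 and 6.96 FPKM. These 3 loci adjoin one another (hg19 chromosome X, 133303408 to 133303797) and differed 420-fold in mean level. MIR20B missed the threshold with 0, 47.2 and 41.5 FPKM, and MIR106A and MIR18B were above 0 in 1 library each. MIR92A2 and MIR19B2 share their mature sequence with MIR92A1 and MIR19B1 of the 17-92 cluster, so reads may be divided between them and MIR17HG.

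In the 106b-25 cluster, which lies in an intron of the replication gene MCM7, MIR25 had 2595, 2340 and 2675 FPKM in DMS153 and MIR106B had 108, 64.2 and 144 FPKM. MIR93 was outside, at 46.6 FPKM in 1 library and near 0 in the others. Over the 5 loci with the seed AUUGCAC, the summed mean was 5864 FPKM. All members of both clusters were listed at 0 in H209 and MRC5.

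Of the 6 loci of the miR-30 family, 5 were members. MIR30D led with 4089, 4188 and 4395 FPKM in DMS153, followed by MIR30E at 380, 434 and 374 FPKM and MIR30A at 368, 340 and 464 FPKM. MIR30C2 and MIR30C1 averaged 63.2 and 17.4 FPKM, and MIR30B missed the threshold at 13.8, 10.8 and 0 FPKM. MIR30D thus stood far above the other loci of the family, and none of its loci was above 0 in H209 or MRC5.

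The miR-200 family, which keeps epithelial cells epithelial by acting on ZEB1 and ZEB2, had 2 members among 5 loci. MIR200B had 58.2, 16.9 and 89.4 FPKM and MIR200A had 53.9, 20.2 and 44.4 FPKM in DMS153. MIR429 and MIR200C were above 0 in 2 libraries each, and MIR141 was listed at 0 in all 3. The family summed to 138, 76.4 and 162 FPKM, which was 0.0405%, 0.0234% and 0.0440% of microRNA FPKM, and was listed at 0 in H209 and MRC5. The epithelial marker genes EPCAM, CDH1, KRT8 and KRT18 summed to 997 to 1091 FPKM in DMS153, 767 to 771 FPKM in H209 and 94.6 to 106 FPKM in MRC5.

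MIR29B1 was the single listed locus of the miR-29 family, which acts on collagen messenger RNAs. Its entry spans 36575 bp, far more than a hairpin. RefSeq places MIR29A, which has no entry of its own, next to MIR29B1, so the entry may hold more than 1 microRNA. MIR29B1 had 133, 132 and 164 FPKM in DMS153, 0.769 and 0.871 FPKM in H209, and 6.30, 6.75 and 5.00 FPKM in MRC5. All DMS153 values lay above all MRC5 values, and those above all H209 values.

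**Figure D2:**
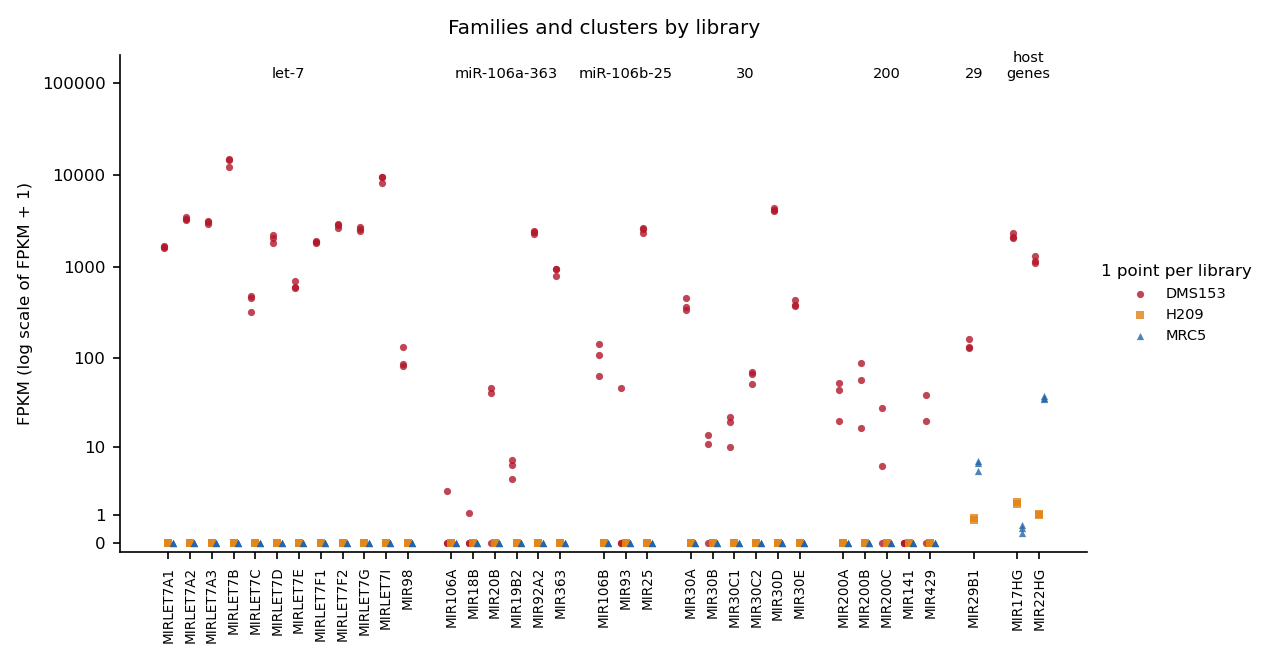
Each point is 1 library's FPKM for 1 locus, on a log scale of FPKM + 1, with DMS153 left, H209 in the middle and MRC5 right of each locus position. Every let-7 locus is above 80 FPKM in DMS153 and at 0 elsewhere, whereas MIR29B1 and both host genes also have values above 0 in H209 and MRC5.

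Many members are known for tissues other than lung neuroendocrine cells. The erythroid loci MIR144 and MIR486 summed to 125422, 116262 and 132618 FPKM, or 36.8%, 35.7% and 36.1% of the microRNA FPKM of the DMS153 libraries. MIR451A, the erythroid partner of MIR144, had no entry of its own under that name. The sum may therefore include it. None of 11 erythroid protein markers, globin genes among them, reached 1 FPKM in a DMS153 library, and the 11 summed to 1.71 to 2.37 FPKM in DMS153, 1.76 to 2.73 FPKM in H209 and 3.14 to 5.85 FPKM in MRC5. HBA1 averaged 0.152 FPKM and HBB 0.164 FPKM in DMS153, and HBG1 was at 0. ANK1, which spans MIR486 and is not among the 11, was higher. Its values were 3.72, 4.10 and 4.71 FPKM in DMS153, 6.86 and 6.12 FPKM in H209, and 0.613, 0.479 and 0.532 FPKM in MRC5.

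MIR122 alone held 19.5%, 19.6% and 20.9% of the microRNA FPKM in DMS153. The 9 hepatocyte markers summed to 2.14 to 3.53 FPKM in DMS153, a mean of 2.14 FPKM in H209, and 0.122 to 0.444 FPKM in MRC5. Albumin (ALB) was the highest of them and the only one at 1 FPKM or more in all DMS153 libraries, with a mean of 1.22 FPKM, and APOA1, TTR and FGB averaged 0.105, 0.00714 and 0.0119 FPKM.

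The leukocyte microRNAs were lower. MIR142, a blood-lineage locus, had 1328, 1223 and 1677 FPKM in DMS153, 0.0149 and 0.0102 FPKM in H209, and was listed at 0 in MRC5. MIR150, of lymphocytes, had 267, 169 and 229 FPKM and MIR223, of myeloid cells, had 105, 77.3 and 111 FPKM in DMS153, and both were listed at 0 in the other lines. MIR155 was not listed by that name, and its host gene MIR155HG, which is no member, had 73.4, 175 and 99.2 FPKM in DMS153, 0.0586 and 0.0753 FPKM in H209, and 0.741, 0.532 and 0.470 FPKM in MRC5. RefSeq places MIR155 inside MIR155HG, so hairpin and host transcript cannot be told apart. None of 11 leukocyte protein markers reached 1 FPKM in a DMS153 library. They summed to 1.82 to 1.99 FPKM in DMS153, 2.06 to 2.62 FPKM in H209 and 0.641 to 1.19 FPKM in MRC5, and PTPRC, the pan-leukocyte surface phosphatase, averaged 0.0211 FPKM in DMS153.

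MIR126, the endothelial microRNA, held 3.86%, 4.03% and 3.68% of the microRNA FPKM. The 5 listed endothelial protein markers summed to 6.80 to 7.42 FPKM in DMS153, 2.18 to 2.26 FPKM in H209 and 28.0 to 31.2 FPKM in MRC5, where MIR126 was listed at 0. CLDN5, a tight junction protein, averaged 6.46 FPKM in DMS153, 1.50 FPKM in H209 and 0.0151 FPKM in MRC5. The receptor gene TEK averaged 29.7 FPKM in MRC5, and CDH5, VWF, KDR and TEK were each below 1 FPKM in every DMS153 library. Gut and liver epithelial loci were all members: MIR192 at 735, 738 and 751 FPKM in DMS153, and MIR194-2, MIR194-1 and MIR215 with means of 90.4, 83.7 and 28.2 FPKM. Of 6 mesenchymal loci, 5 were members, led by MIR143 at 255, 337 and 378 FPKM and MIR199A1 at 165, 212 and 194 FPKM in DMS153. MIR143 and the 3 member loci of the miR-199 family were listed at 0 in MRC5, the fibroblast line, where the host transcript MIR143HG had 1.45, 0.726 and 1.08 FPKM. MIR145, the remaining member, was above 0 in MRC5, at 2.48 to 2.66 FPKM, and averaged 24.6 FPKM in DMS153. Of the genes that span MIR199A2, DNM3OS averaged 8.75 FPKM and DNM3 0.204 FPKM in MRC5.

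MicroRNAs known from neural and neuroendocrine cells did not lead the ranking. MIR375, a microRNA of pancreatic islets and neuroendocrine cells, had 112, 158 and 258 FPKM in DMS153, and MIR7-2 had 10.6, 7.86 and 9.99 FPKM. Of 14 listed neural loci, 2 were members, MIR128-1 at 1114, 1257 and 1192 FPKM and MIR128-2 at 493, 478 and 542 FPKM, which share a mature sequence. MIR9-1, MIR9-3, MIR124-2, MIR124-3 and both loci each of MIR129 and MIR138 were listed at 0 in all DMS153 libraries. All of these loci were listed at 0 in H209, which carries the same neuroendocrine protein markers.

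None of 8 listed muscle loci was a member, and MIR1-1, the highest of the hairpin-sized ones by mean, had 12.7, 0 and 11.0 FPKM. The muscle protein marker MB, myoglobin, averaged 31.5 FPKM in DMS153 and 14.9 FPKM in H209, and DES, desmin, averaged 4.34 FPKM in DMS153. Of 8 listed embryonic stem cell loci, MIR302B was a member through an entry of 3576 bp, and the other 7 were listed at 0 in all libraries. The HOX cluster microRNAs MIR10B (1074, 1012 and 1180 FPKM) and MIR10A (473, 452 and 457 FPKM) were members, while MIR196A1, MIR196A2 and MIR196B were at or near 0. MIR183 and MIR182 of the sensory 183 cluster averaged 106 and 76.8 FPKM. MIR203, an epidermal microRNA, averaged 2.33 FPKM. Of the MIR34 loci, which p53 induces, MIR34A and MIR34B were listed at 0 in all DMS153 libraries and MIR34C had 12.7, 0 and 29.3 FPKM. In bulk RNA, fewer cells of a type and less RNA per cell cannot be told apart, and which cells carried these microRNAs was not measured.

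The length of the annotated entry divided the members into 2 kinds. Of the 159, 146 were at most 150 bp long (median 86 bp, from 50 to 149 bp), the size of a hairpin, and 107 of the 125 with a RefSeq hairpin had exactly its length. The other 13 spanned 895 to 36575 bp with a median of 2630 bp. Among the short loci, 143 were listed at 0 in all 5 H209 and MRC5 libraries, and none averaged 1 FPKM in either line. The 3 exceptions were MIR1307, at 0.513 FPKM in 1 MRC5 library, and MIR186 and MIR221, at 1.98e-07 and 1.32e-13 FPKM in 1 MRC5 library each. Among the long loci, 1 (MIR144) was listed at 0 in those 5 libraries and 8 reached 1 FPKM in 2 or more of them.

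MIR3916, the longest after MIR29B1 at 21006 bp, had similar levels in the carcinoma lines, 47.9, 44.3 and 39.5 FPKM in DMS153 and 42.9 and 40.3 FPKM in H209, against 27.3, 21.4 and 23.1 FPKM in MRC5. MIR940 averaged 1.38 FPKM in DMS153, 0.935 FPKM in H209 and 1.39 FPKM in MRC5. MIR3615 averaged 1.28 FPKM in DMS153, 1.35 FPKM in H209 and 0.492 FPKM in MRC5. MIR146A, an inflammation-induced microRNA listed with 19159 bp, instead had 576, 627 and 747 FPKM in DMS153, at most 0.0608 FPKM in H209 and at most 0.000354 FPKM in MRC5. MIR10A, MIR142 and MIR194-2 also stood far higher in DMS153 than elsewhere despite entries over 1000 bp. The long loci thus differed among themselves.

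**Figure D3:**
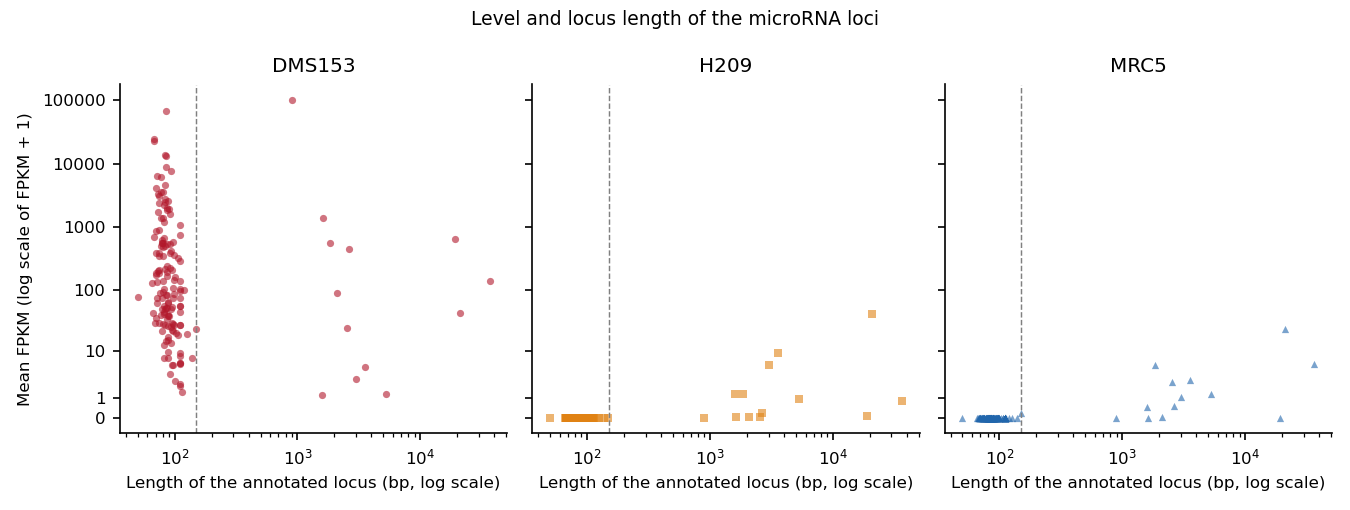
Each point is 1 of the 159 loci, with the length of its annotated entry in bp on a log axis and its mean FPKM on a log scale of FPKM + 1, in DMS153 (left), H209 (middle) and MRC5 (right). The dashed line marks 150 bp: to its left the H209 and MRC5 points lie at or near 0, and to its right 8 loci average at least 1 FPKM in H209 or MRC5.

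FPKM divides by length, so short loci weigh more in summed FPKM than in fragments. All microRNA loci held 42.0%, 39.4% and 43.7% of the summed FPKM of the DMS153 libraries, 0.0192% and 0.0150% in H209, and 0.0104%, 0.00813% and 0.0140% in MRC5. The 146 short members alone held 29.2%, 27.8% and 30.5% of summed FPKM in DMS153. Multiplied by annotated length, the same values gave 1.90%, 1.84% and 2.07% of mapped fragments, if FPKM was scaled by that length. The length that the software used for each locus is not given, so these shares are uncertain. MIR378A (66 bp) and MIR221 (110 bp) averaged 129 and 142 FPKM in DMS153. Their deposited intervals had median half-widths of 61.5% and 25.6% of the value. The shortest loci may thus rest on fewer fragments than annotated length implies, and levels of short loci need not compare as fragments. For the long loci such a product is not interpretable, because an entry can hold transcripts of different length, and over all loci it gave 13.1%, 12.4% and 14.3%.

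Other short RNAs were compared in the same libraries, since the labels give neither the RNA selection nor the fragment sizes. Y RNA loci summed to 3190, 2731 and 3091 FPKM in DMS153, 4.68 and 4.44 FPKM in H209, and 3.45, 1.89 and 2.06 FPKM in MRC5. Vault RNA loci summed to 55.6, 66.9 and 97.5 FPKM in DMS153 and were listed at 0 in H209 and MRC5. Both classes, like the microRNAs, were high in DMS153 alone. Loci of 5S ribosomal RNA were low but also higher in DMS153 without overlap, at 25.6, 27.7 and 14.6 FPKM in sum, against 0.225 and 0.399 FPKM in H209, and 5.56, 0 and 0 FPKM in MRC5.

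C/D box small nucleolar RNAs, 7SK and 7SL overlapped with H209 or lay below it in DMS153. C/D box small nucleolar RNA loci summed to 11.7, 22.3 and 9.81 FPKM in DMS153, 13.4 and 14.9 FPKM in H209, and 5.48, 10.8 and 4.99 FPKM in MRC5. Loci of 7SK summed to 34.3, 42.1 and 28.6 FPKM in DMS153, 47.2 and 44.2 FPKM in H209, and 17.4, 10.6 and 16.2 FPKM in MRC5. Loci of 7SL summed to 130, 180 and 132 FPKM in DMS153, 346 and 396 FPKM in H209, and 104, 111 and 101 FPKM in MRC5. H/ACA box small nucleolar RNAs and small Cajal body RNAs also overlapped with H209. Small nuclear RNA loci were modestly higher in DMS153 without overlap. They summed to 38.4, 38.3 and 28.9 FPKM there, 28.1 and 21.5 FPKM in H209, and 12.9, 12.4 and 15.2 FPKM in MRC5. The part of library preparation, size selection or RNA from another source in the microRNA levels of DMS153 was not tested, and line and library preparation cannot be told apart here.

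By position alone, with strand not considered, 103 of the short members lie inside another annotated gene. The level of that gene is a measure that the choice of members did not use. For 58 of them that gene had at least 1 FPKM in every H209 and MRC5 library, and 56 of these 58 microRNA loci were listed at 0 in all of those libraries. Of all 146 short members, 143 were listed at 0 there, a similar share, so this count is not particular to loci inside such genes. MIR21, a growth-promoting microRNA, had 6463, 5990 and 6738 FPKM in DMS153. VMP1, the autophagy gene that spans it, averaged 38.6 ± 1.42 FPKM in DMS153 (SD, n = 3), 32.4 ± 3.89 FPKM in H209 (n = 2) and 101 ± 8.09 FPKM in MRC5 (n = 3). All 3 MRC5 libraries lay above all carcinoma libraries at VMP1, while the microRNA locus was above 0 in DMS153 alone.

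MIR126 lies in EGFL7, a secreted endothelial factor, at 7.49 ± 0.0809 FPKM in DMS153, 4.00 ± 0.0231 FPKM in H209 and 14.4 ± 2.11 FPKM in MRC5. MIR26A1 lies in the phosphatase gene CTDSPL, at 2.55 ± 0.0393 FPKM in DMS153, 3.30 ± 0.550 FPKM in H209 and 12.4 ± 0.652 FPKM in MRC5. For both, the gene was highest in MRC5 while the microRNA locus was listed at 0 there. MIR25 lies in MCM7, at 123 ± 13.5 FPKM in DMS153, 103 ± 3.03 FPKM in H209 and 17.7 ± 0.512 FPKM in MRC5. MIR16-2 lies in the condensin gene SMC4, at 193 ± 22.0 FPKM in DMS153, 98.9 ± 7.07 FPKM in H209 and 14.4 ± 3.50 FPKM in MRC5. MIR30E lies in NFYC, a subunit of the transcription factor NF-Y, at 101 ± 3.24 FPKM in DMS153, 80.7 ± 7.17 FPKM in H209 and 17.5 ± 1.05 FPKM in MRC5. These 3 genes were high in H209 too, where the microRNA loci stood at 0. MIR26A1 shares a mature sequence with MIR26A2, and MIR16-2 with MIR16-1, so the division of reads within each pair is uncertain.

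For some members, the gene that spans them was below 1 FPKM in DMS153. MIR152 had 42.1, 32.6 and 82.5 FPKM in DMS153, with a median deposited half-width of 67.7% of the value. COPZ2, a coat protein gene that spans it, averaged 0.0436 FPKM in DMS153, against 51.3 ± 4.65 FPKM in MRC5 (SD, n = 3). MIR128-2, above, lies in ARPP21, a phosphoprotein gene of neurons, at a mean of 0.0802 FPKM in DMS153. MIRLET7C lies in LINC00478, at 0.256 to 0.425 FPKM in DMS153, 0.818 to 1.10 FPKM in H209 and 0.945 to 1.54 FPKM in MRC5. Across the 92 short members inside exactly 1 other gene, the levels of locus and gene in DMS153 had a Pearson r of -0.00 and a Spearman rho of -0.01 on the log2(FPKM + 1) scale. That is a description over loci in the same libraries, and some of the loci share a spanning gene. The loci were chosen by these DMS153 values, and spanning genes were matched by position alone, on either strand. The correlation therefore cannot say whether microRNAs follow the genes that span them.

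**Figure D4:**
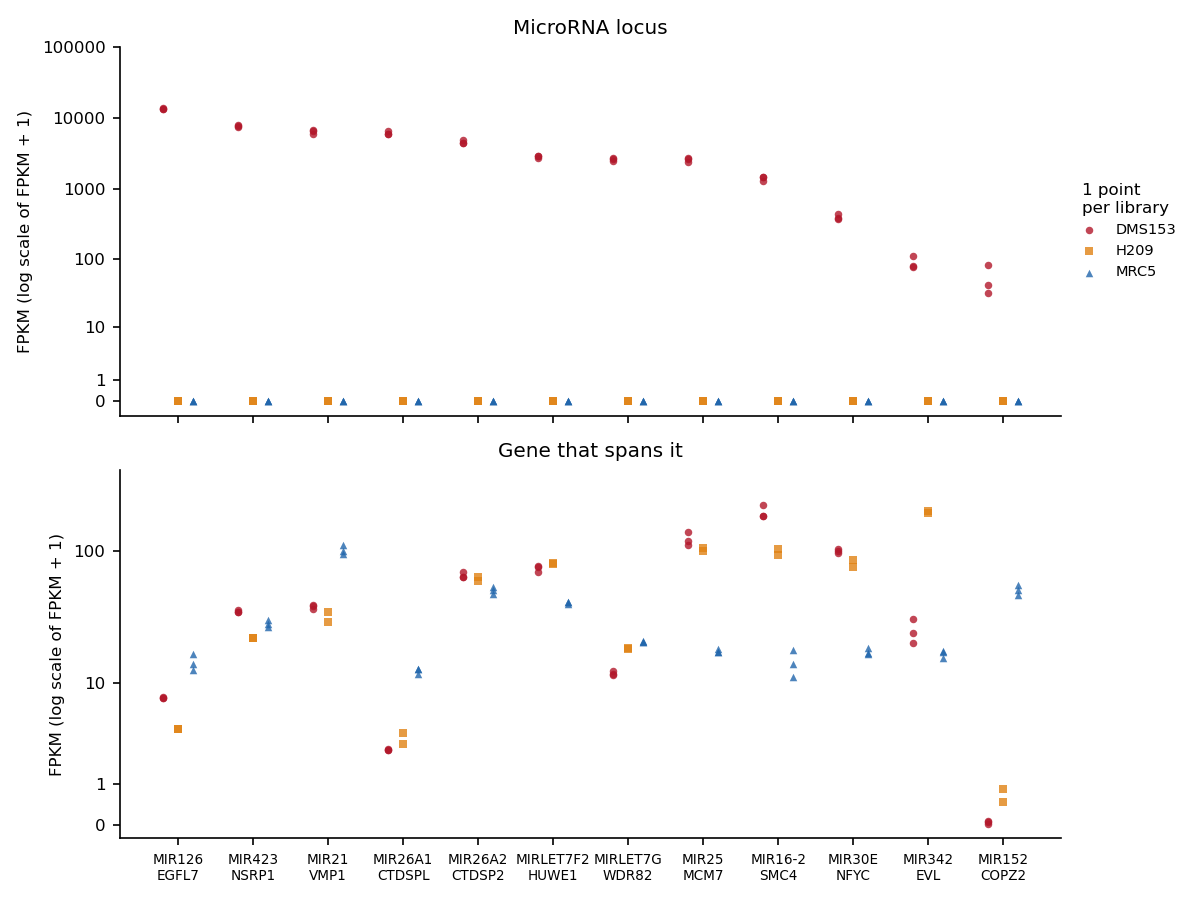
The upper panel shows the FPKM of 12 microRNA loci and the lower panel that of the gene that spans each, on log scales of FPKM + 1, with 1 point per library and DMS153 left of H209 and MRC5. The loci are at 0 in H209 and MRC5, whereas the spanning genes have levels there that include 101 FPKM for VMP1 and 51.3 FPKM for COPZ2 in MRC5.

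Members lay on 23 chromosomes, most on chromosome 14 (20 members), X (18 members) and 1 (16 members). With gaps of up to 10 kb, 64 of the 161 formed 24 clusters. The largest, on hg19 chromosome 14 from 101488366 to 101532024, is the imprinted microRNA cluster of the DLK1-DIO3 region. It held 13 members, among 39 microRNA loci listed within 100 kb. MIR409 led it with 439, 759 and 499 FPKM in DMS153, and MIR543 had 488, 639 and 365 FPKM. MIR485 was lowest, at a mean of 8.39 FPKM. Levels within the cluster thus differed 67.5-fold, and every member of it was listed at 0 in H209 and MRC5. The highest and lowest loci of a cluster differed over 10-fold in 8 of the 24 clusters. In the 23a cluster on chromosome 19 they were MIR27A at 3641 FPKM and MIR23A at 200.0 FPKM, microRNAs that are cut from 1 transcript. In the cluster of MIRLET7A1, MIRLET7F1 and MIRLET7D on chromosome 9, by contrast, means were within 1.24-fold.

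Hi-C domains, regions of preferred contact called by the authors from 1 library of each line, were set beside the members' positions. Of the 161 members, 37.9% lay within 40 kb of a domain end in DMS153, 29.2% in H209 and 32.9% in MRC5. The share among other microRNA loci was 26.0% for the DMS153 domains, 22.8% for those of H209 and 22.8% for those of MRC5. Among all genes tested it was 35.8%, 31.1% and 30.8%, in that order of lines. Of the members, 54.7% lay inside a domain of DMS153, 64.0% inside one of H209 and 60.9% inside one of MRC5, beside 51.0%, 50.6% and 49.6% of the genes tested. These are descriptions with no replicate check, and the number of domains differed between lines (5023 in DMS153, 3987 in H209, 3701 in MRC5).

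Only H209 against MRC5 is a comparison of members that their choice did not use. It was tested with limma across 19066 genes on log2(FPKM + 1), with a call at an adjusted p of at most 0.05 (Benjamini-Hochberg) and a change of 1 or more, up or down, on the log2 scale. Across all genes, 47.9% were called, 33.0% higher and 14.9% lower in H209. All 161 members passed the filter on low values, but most through their DMS153 values alone. Of them 6 were called, 2 higher and 4 lower in H209, and all 6 were long entries or MIR22HG. In a fit of the H209 and MRC5 libraries alone, 10 members passed the filter and the same number of calls was made, 2 higher and 4 lower, with 52.9% of all genes called.

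The higher members were MIR4453 and MIR302B. MIR4453 had 5.22 and 6.30 FPKM in H209, against 1.38, 0.825 and 1.15 FPKM in MRC5 (log2 fold change 1.68 ± 0.13 SE, limma adjusted p = 2.02e-06). MIR302B had 9.80 and 9.07 FPKM in H209, against 1.87, 3.21 and 3.46 FPKM in MRC5 (1.47 ± 0.18 SE, limma adjusted p = 5.28e-05). In both, every H209 library lay above every MRC5 library, and DMS153 lay between them, at 3.39, 3.17 and 2.71 FPKM for MIR4453 and 6.01, 5.08 and 4.56 FPKM for MIR302B. The MIR302B entry lies inside LARP7, a gene of the 7SK complex, which averaged 88.8 FPKM in H209, 52.1 FPKM in DMS153 and 35.1 FPKM in MRC5, the same order of lines. The part of LARP7 in this call was not tested. With quantile normalization both higher calls missed the minimum change, at 0.94 for MIR4453 and 0.84 for MIR302B on the log2 scale.

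The lower members were led by MIR22HG, host of the tumour-suppressive miR-22. It had 1.07 and 0.998 FPKM in H209, against 38.9, 35.9 and 36.2 FPKM in MRC5 (log2 fold change -4.22 ± 0.09 SE, limma adjusted p = 2.82e-10), and 1111, 1326 and 1155 FPKM in DMS153. MIR29B1 was lower in H209 (-1.94 ± 0.13 SE, limma adjusted p = 6.50e-07). MIR145, a microRNA of smooth muscle and fibroblasts, had 0 and 0.0308 FPKM in H209, against 2.66, 2.65 and 2.48 FPKM in MRC5 (-1.82 ± 0.19 SE, limma adjusted p = 1.42e-05), and 33.1, 21.7 and 19.1 FPKM in DMS153. MIR24-2 had 1.44 and 1.20 FPKM in H209, against 6.36, 5.33 and 5.29 FPKM in MRC5 (-1.52 ± 0.10 SE, limma adjusted p = 4.20e-07), and 530, 601 and 541 FPKM in DMS153. In each of these 4 the H209 and MRC5 libraries did not overlap. The MIR22 hairpin lies inside MIR22HG in RefSeq and has no entry of its own, so hairpin and host transcript cannot be told apart. MIR17HG was 0.94 ± 0.10 higher in H209 on the log2 scale (SE, limma adjusted p = 1.26e-05), which missed the minimum fold change.

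Genes that make and use microRNAs were measured as a separate group, since the choice of members did not use them. Of 23 listed genes, 21 passed the filter on low values, with LIN28A and LIN28B left out by it. In DMS153 against MRC5, 10 of 21 were called higher and none lower, where 50.4% of all genes were called, 34.0% higher and 16.4% lower. In H209 against MRC5, 13 were called higher and none lower, where 47.9% of all genes were called, 33.0% higher and 14.9% lower. The median log2 fold change over the 21 genes was 0.89 in DMS153 against MRC5 and 1.05 in H209 against MRC5, beside medians of 0.44 and 0.46 over all genes tested. The 2 comparisons share the MRC5 libraries.

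Among the processing genes, DROSHA, the nuclear enzyme, had 87.0, 96.7 and 90.3 FPKM in DMS153, 84.2 and 94.8 FPKM in H209, and 23.8, 22.6 and 27.0 FPKM in MRC5. It rose by 1.86 ± 0.08 in DMS153 and by 1.83 ± 0.09 in H209 against MRC5 on the log2 scale (SE, limma adjusted p = 2.80e-08 and 8.62e-08). Its partner DGCR8 rose by 1.55 ± 0.10 in DMS153 and 1.37 ± 0.11 in H209 (limma adjusted p = 2.95e-07 and 1.88e-06). DICER1 had 48.8, 43.3 and 39.8 FPKM in DMS153, 24.4 and 21.2 FPKM in H209, and 14.4, 9.10 and 14.7 FPKM in MRC5. It was called in DMS153 against MRC5 (1.73 ± 0.17 SE, limma adjusted p = 6.64e-06) but not in H209 against MRC5 (0.82 ± 0.19 SE), and the difference between the carcinoma lines, 0.92 ± 0.19, missed the minimum fold change. Between DMS153 and H209, where hairpin loci were listed at 0, DROSHA differed by 0.03 ± 0.09 and DGCR8 by 0.18 ± 0.11 on the log2 scale (SE), and neither was called.

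Of the effector complex, AGO1, an Argonaute, had 22.1, 24.6 and 23.9 FPKM in DMS153, 26.6 and 26.3 FPKM in H209, and 3.08, 3.05 and 3.38 FPKM in MRC5. AGO2, the Argonaute that can cut its target, had 32.9, 38.6 and 33.2 FPKM in DMS153, 31.4 and 33.3 FPKM in H209, and 8.52, 5.14 and 7.50 FPKM in MRC5. In both genes all carcinoma libraries lay above all MRC5 libraries. AGO1, AGO2, AGO3, TNRC6B and TNRC6C, the last 2 of which encode the GW182 proteins that recruit silencing factors, were called higher in DMS153 against MRC5, and AGO4 joined them in H209 against MRC5. ZCCHC11, a terminal uridylyltransferase that acts on let-7 precursors, was called higher in DMS153 against MRC5 (1.18 ± 0.07 SE, limma adjusted p = 1.68e-07).

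Between the carcinoma lines, 1 of the 21 genes was called, where 27.1% of all genes were. TARBP2, a partner protein of DICER1, had 8.92, 8.25 and 8.23 FPKM in DMS153, against 22.5 and 23.0 FPKM in H209 (log2 fold change -1.33 ± 0.07 SE, limma adjusted p = 4.48e-07), with 10.5, 11.2 and 10.1 FPKM in MRC5. DMS153 lay below both other lines at this gene. The median over the 21 genes was 0.01, beside -0.04 over all genes. That count depended on scaling: 6 were lower in DMS153 with TPM, where the median of all genes was -0.59.

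**Figure D5:**
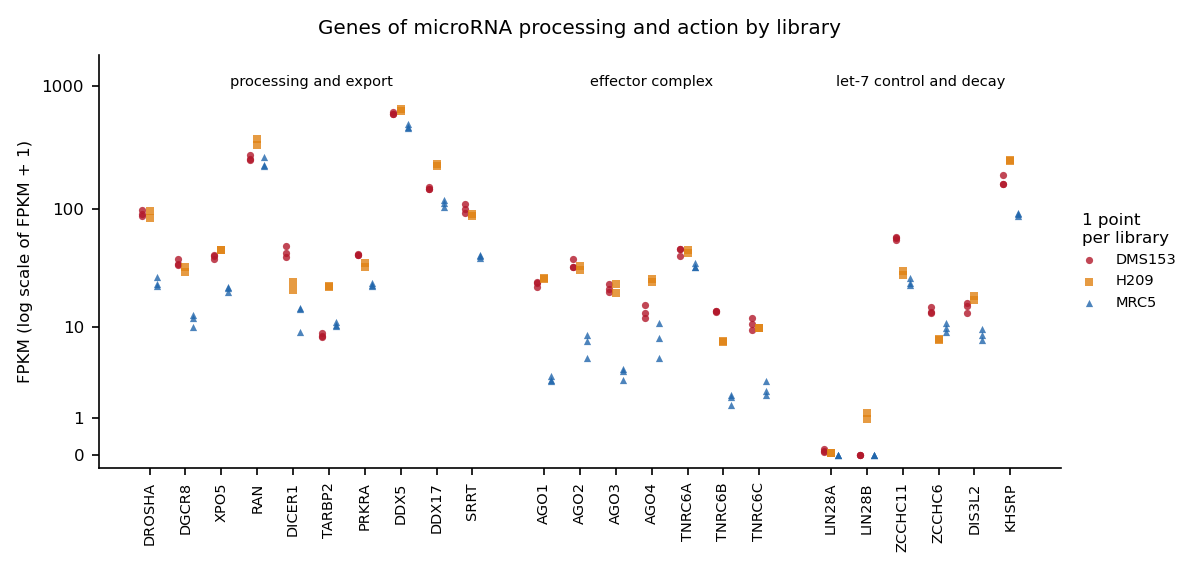
Each point is 1 library's FPKM for 1 of the 23 listed genes of microRNA processing and action, on a log scale of FPKM + 1, with DMS153 left, H209 in the middle and MRC5 right of each gene position. For DROSHA, DGCR8 and AGO1 to AGO3 both carcinoma lines lie above MRC5, and TARBP2 is lower in DMS153 than in H209.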

How the data were processed

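RNA of DMS153, H209 and MRC5 was measured per gene as FPKM. The authors made the deposited FPKM values and their confidence bounds per library, with TopHat2 (2.1.0) and Cufflinks (2.2.0) on hg19 per the submitters' processing notes, which also name Bowtie2 and HOMER (4.8). For RNA selection, strand, fragment size and read totals: not given in the sources used here. Domain start and end positions were used as the authors deposited them.

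The members, gene lists and tests were chosen with earlier results of these data known. limma (3.58.1, R 4.3.3) was run on log2(FPKM + 1) over genes with at least 1 FPKM in 2 or more libraries, all 8 libraries in 1 fit with trend, and p-values were adjusted (Benjamini-Hochberg) over all genes. A call needs an adjusted p of at most 0.05 and a change of 1 or more on the log2 scale. The script was tested on simulated data. Genes at 0 are described as listed at 0, with no fold. Named genes are the 10 highest members, those of the family, tissue and p53 lists, members of at least 1 FPKM in H209 or MRC5, the extremes of variation and threshold, and the genes of the biogenesis, host and marker lists. MIR146A, MIR1307, MIR186, MIR221, WDR82, NSRP1 and the loci of the genome clusters were named after their values were seen. Sequences are from RefSeq (GRCh38.p14), matched by name. The loci MIR150, MIR151A, MIR30D, MIR320A, MIR3676, MIR483, MIR486, MIR505 and MIR720 are among those with no match. Alternatives were other scalings, filters, pseudocounts, left-out libraries and the replicate number as a block. One further small cell marker gene is not reported here and is in none of the sums.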

Additional observations from a re-analysis of the deposited data

Results flagged for a closer look

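The members below lay above MRC5 in every DMS153 library and below it in every H209 library. The difference was not tested because members were chosen by their DMS153 values, or by name for MIR22HG. The median member was 6.55 higher in DMS153 than in MRC5 on the log2(FPKM + 1) scale. The DMS153 side is therefore not particular to these members. MIR22HG was above MRC5 in all 3 DMS153 libraries and below it in both H209 libraries, a DMS153 minus H209 difference of 9.20 on the log2(FPKM + 1) scale. MIR24-2 (7.91), MIR29B1 (6.30) and MIR145 (4.62) did the same. The MIR22 hairpin has no entry of its own and lies inside MIR22HG in RefSeq, and the entries of MIR24-2, MIR29B1 and MIR145 are longer than a hairpin. Hairpins and longer transcripts in these entries cannot be told apart, so the values do not show opposite regulation of host genes.

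TARBP2 differed between the carcinoma lines by -1.33 (DMS153 minus H209, log2, limma adjusted p = 4.48e-07, lower in 3 of 3 DMS153 libraries).

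Among small RNAs outside the members, Y RNA loci averaged 3004 FPKM in sum in DMS153 against 2.47 FPKM in MRC5, vault RNA loci 73.3 FPKM against 0, and 5S ribosomal RNA loci 22.6 FPKM against 1.85 FPKM. Their part in the microRNA levels was not tested.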

How the results depend on the processing

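Over 1269 values of 69 gene results under the alternatives, 1232 kept their direction and side of the threshold, 24 crossed it upward, 13 fell short and none reversed. The number of loci chosen by the rule, 159, was 151 at 2 FPKM, 144 at 5 FPKM, 204 at 1 FPKM in 2 of 3 libraries, 112 where the lower confidence bound had to reach 1 FPKM, and 166 to 184 without 1 library. The microRNA share of summed FPKM in DMS153, 41.7%, became 13.2% as FPKM times locus length, 12.9% for loci of at least 100 bp, 33.7% without the highest locus and 1.94% as FPKM times length of members of at most 150 bp, a setting chosen after seeing the data. It was 40.7% to 42.8% without 1 library.

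Calls among members in H209 against MRC5 numbered 6, and 4 with quantile normalization (0 higher and 4 lower, without MIR4453 and MIR302B), 9 with a pseudocount of 0.1, and 6 to 7 without 1 library. Calls among biogenesis genes numbered 8 to 15 in DMS153 against MRC5 and 9 to 16 in H209 against MRC5, none lower, and without 1 library 10 and 13 to 14. In DMS153 against H209, 1 call became 2 with no filter, 3 with median ratio scaling, 3 with quantile normalization and 6 with TPM, where all genes gave 8444 calls. Without 1 library it was 1 to 2, the 2 without H209 replicate 1. Calls over all genes without 1 library numbered 9493 to 9649 in DMS153 against MRC5, 8515 to 9139 in H209 against MRC5 and 4619 to 5212 in DMS153 against H209. Scaling moved the split: quantile normalization gave 4544 higher and 4595 lower in DMS153 against MRC5 (median -0.04), and TPM 5750 and 4527 (median 0.13). With the replicate block, 7 members were called in H209 against MRC5 and 10, 13 and 1 biogenesis genes in the comparisons as ordered above. Replicate numbers did not pair the libraries: 1 of 7 same-number pairs had a correlation of deviations over 0.1 (from -0.01 to 0.12). Read depth is unknown, and low loci had deposited intervals wider than their value.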
